A study of Mus musculus with 8 samples.

Results

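The interferon regulatory transcription factors measured here are 8 genes taken from the deposited count table by symbol: Irf1, Irf2, Irf3, Irf5, Irf7, Irf8 and Irf9 of the IRF family, and Batf2, which encodes a basic leucine zipper partner of IRF proteins. They are 8 of the 18187 gene symbols in the table, and 7 of the 8 had enough counts to be tested, the exception being Irf8. The libraries were bulk RNA-seq of mouse neutrophils linked to B16 tumors, B16 being a mouse melanoma line. Of the treatments, aOX40 had 3 libraries, numbered 1 to 3, and IgG had 5, numbered 2 to 6. The label aOX40 reads as an antibody against OX40, a costimulatory receptor best known on T cells, and IgG as its control antibody. Both groups share the B16 tumor and the neutrophil label, and mouse strain, genotype, age, dose, time of sampling and method of cell isolation were not in the labels used here. Nor do the labels say whether the libraries are from different mice or from pooled mice, so a p-value reflects only how far these libraries spread, technical scatter included. By its title the series asks how T cell immunotherapy activates neutrophils, and the comparison its design allows is aOX40 against IgG.

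IRF proteins bind DNA through a shared winged helix-turn-helix domain that reads the GAAA repeats of interferon-stimulated response elements (ISREs). Irf3 and Irf7 are switched on by kinases downstream of nucleic acid sensors and Toll-like receptors and drive interferon genes, while Irf9 joins Stat2 in the ISGF3 complex, which reads out the type I interferon receptor. Irf1 is itself induced by interferon and activates antigen presentation and guanylate-binding protein genes, Irf2 competes with it at many of the same elements, Irf5 drives inflammatory cytokine genes, and Irf8 steers myeloid progenitors away from the neutrophil fate towards monocytes and dendritic cells. Batf2 is an interferon-induced gene of myeloid cells whose protein pairs with Irf1.

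Promoter sequences of the members were searched for a core of the ISRE, GAAANNGAAA, and for the gamma-activated site (GAS) bound by STAT dimers, TTCNNNGAA, on both strands. The sequences are the RefSeq windows of build GRCm38.p6, from 250 bases before to 50 bases after an annotated start. Symbols of 7 of the 8 members matched, with 10 windows in all, and Batf2 was not among them. The ISRE core was present in 1 of the 10 windows and the GAS in 3, while of all 32851 windows, from 27025 gene symbols, 3.44% held the ISRE core and 8.30% held the GAS. The 3 windows with a match to either element are shown, and the capitals mark the matches. They lie at chr11:53769764-53770063 (Irf1), chr8:46739495-46739794 (Irf2) and chr8:120736108-120736407 (Irf8), all on the plus strand.
Irf1: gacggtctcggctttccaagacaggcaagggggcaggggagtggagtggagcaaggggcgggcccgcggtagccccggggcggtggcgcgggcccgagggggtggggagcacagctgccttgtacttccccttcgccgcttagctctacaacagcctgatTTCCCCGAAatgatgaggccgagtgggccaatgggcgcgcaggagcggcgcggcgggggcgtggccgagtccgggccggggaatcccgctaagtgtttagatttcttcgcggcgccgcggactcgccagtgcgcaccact
Irf2: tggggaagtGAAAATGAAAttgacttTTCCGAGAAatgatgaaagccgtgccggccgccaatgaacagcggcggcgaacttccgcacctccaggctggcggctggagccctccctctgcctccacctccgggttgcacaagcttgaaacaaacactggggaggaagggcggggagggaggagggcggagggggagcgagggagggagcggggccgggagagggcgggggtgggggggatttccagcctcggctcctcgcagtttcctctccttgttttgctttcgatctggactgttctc
Irf8: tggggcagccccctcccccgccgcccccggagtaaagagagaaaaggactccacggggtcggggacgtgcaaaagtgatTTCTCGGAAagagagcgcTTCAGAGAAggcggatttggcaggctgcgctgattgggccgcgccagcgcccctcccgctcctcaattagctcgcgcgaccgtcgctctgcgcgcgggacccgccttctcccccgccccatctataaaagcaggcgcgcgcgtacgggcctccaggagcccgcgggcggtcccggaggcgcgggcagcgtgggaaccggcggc
The Irf1 window held 1 GAS, TTCCCCGAA, 90 bases before the start. The Irf2 window held the ISRE core GAAAATGAAA 241 bases before the start and a GAS, TTCCGAGAA, 224 bases before it. The Irf8 window held 2 GAS matches, 171 and 153 bases before the start. A match is a string of letters and not a measured binding site, and the windows without one (Irf3, Irf5, Irf7, Irf9 and the second windows of Irf1 and Irf8) say only that these letters were not within them.

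The aOX40 libraries held 69.6 to 73.5 M counts and the IgG libraries 52.7 to 63.2 M counts (M, mega), and genes with at least 10 counts numbered 12715 to 13339 in aOX40 and 11382 to 12621 in IgG. In an exact permutation test (two-sided) each of these gave p = 0.0357, as small as 3 against 5 libraries can give, so the deeper libraries were those of aOX40. As a check of the label, the summed level of 14 neutrophil markers was 23995 ± 4704 CPM (counts per mega-count, on TMM-scaled library sizes) in aOX40 against 23045 ± 5334 CPM in IgG (± SD, n = 3 and 5), with p = 0.786 in an exact permutation test, two-sided, all 14 were detected, and Mmp8, Mmp9 and Cd177 among them passed the test as higher in aOX40. Of the 14 markers, 7 had a log2 fold change above 0 and 7 below, with a median of 0.02. None passed as lower, and the lowest was Camp at -1.14 (edgeR adjusted p = 0.202). Markers of monocytes and macrophages summed to 551 to 793 CPM in aOX40 and 381 to 730 CPM in IgG (permutation p = 0.179, exact) over the 10 of 12 listed that are in the table. Most of this sum was Ly6c2, with 547 CPM in aOX40 against 425 CPM in IgG (edgeR adjusted p = 0.484), so it says little about the other markers. Their member Adgre1 was higher, with 21.6 CPM in aOX40 against 6.12 CPM in IgG (edgeR adjusted p = 0.0248). Csf1r, on the same list, had 51.2 CPM in aOX40 against 17.5 CPM in IgG, also with every aOX40 library above every IgG library, and missed the threshold (edgeR adjusted p = 0.0546). Fibroblast markers, of which 5 of 8 are in the table, summed to 18.8 to 24.5 CPM in aOX40 and 11.9 to 43.4 CPM in IgG (exact permutation p = 0.393), but their member Col1a1, a collagen gene, was lower in aOX40 without overlap, with 1.72 ± 0.493 CPM against 15.01 ± 11.8 CPM in IgG (± SD, n = 3 and 5, edgeR adjusted p = 0.0414). Acta2, the only other marker tested on that list, went the other way, at 19.6 CPM in aOX40 against 13.2 CPM in IgG. It missed the threshold (edgeR adjusted p = 0.397). The 13 mitochondrial messenger RNAs, a list that follows RNA quality, summed to 915 to 1200.3 CPM in aOX40 and 571 to 929 CPM in IgG (exact permutation p = 0.0714, and 0.0357 with scaling by total counts alone). The part of depth, of the monocyte and fibroblast markers and of the mitochondrial RNAs in the results below was not tested. In bulk libraries, fewer cells of a type and less RNA per cell cannot be told apart.

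Of the 7 members tested, 1 was lower in aOX40 neutrophils and 0 were higher. Batf2 passed the threshold, an adjusted p below 0.05 in edgeR's quasi-likelihood F test over all 13278 genes tested, and was the only member to do so. The share of all tested genes past the same threshold was 5.65%, with 3.00% lower and 2.64% higher in aOX40. At an unadjusted p below 0.05, 4 members were lower (Irf1, Irf2, Irf9 and Batf2) and 0 were higher, while 12.2% of all genes tested were lower and 12.5% higher at that level. The same 4 members had every aOX40 library below every IgG library, which held for 7.75% of all genes tested, while 0 members had every aOX40 library above every IgG library, which held for 8.22% of all genes. The median log2 fold change of the 7 members was -0.64, against 0.05 over all genes. The count moved with the scaling. With library sizes taken from total counts alone, Irf2 and Batf2 kept the separation and Irf1 and Irf9 did not. With that scaling 4.57% of all genes had every aOX40 library below every IgG library. Irf3 then had every aOX40 library above every IgG library, but the share of all genes that did so was not counted for that scaling. That scaling moved the median of all genes up by 0.30 on the log2 scale, and 78.0% of the genes it called were higher in aOX40. Without aOX40 replicate 2, edgeR called 0 of all genes (2230 at an unadjusted 0.05), and with the replicate number as a block it also called 0 (2594 at an unadjusted 0.05), so each call below is lost in both analyses while the log2 fold change of each called member, partner or target named keeps its sign.

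**Figure D1:**
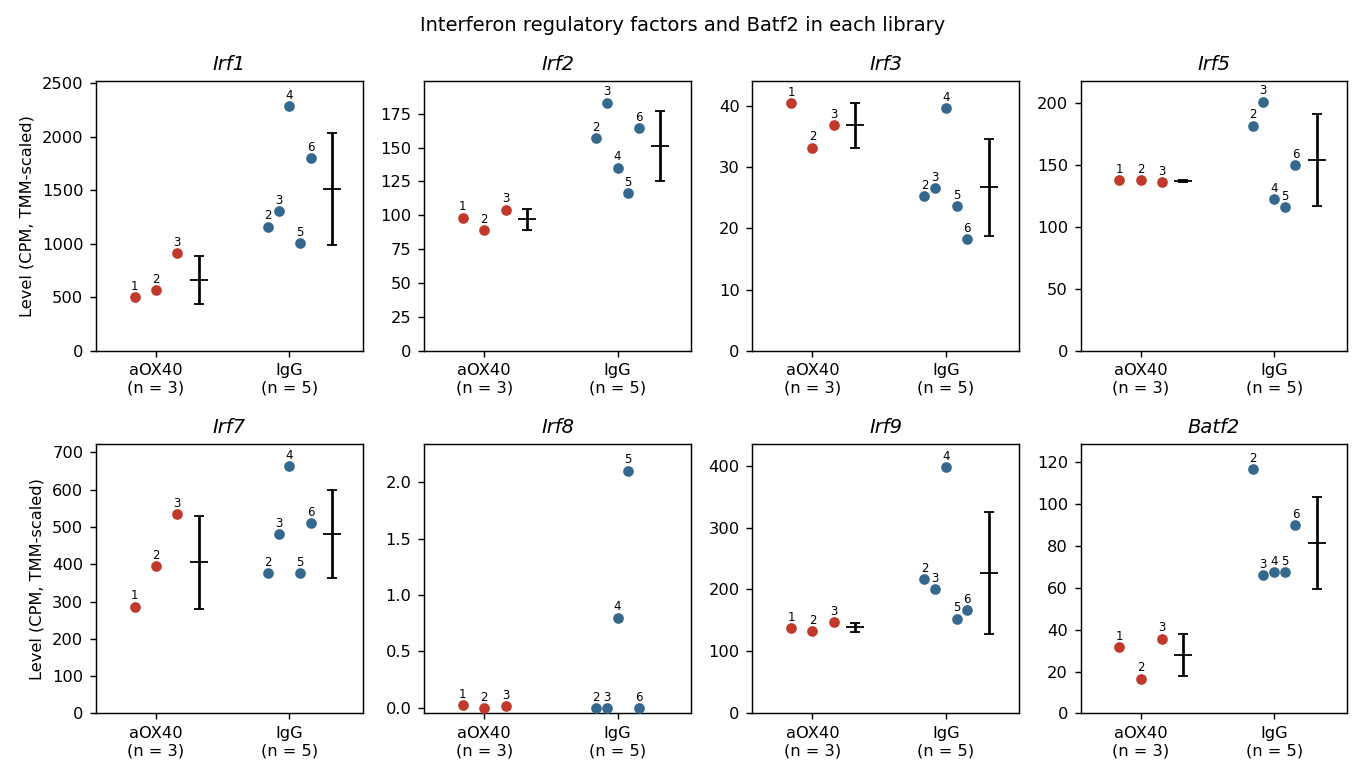
Level of each of the 8 members in each library, in CPM on TMM-scaled library sizes, with a separate axis from 0 for each gene. Points are single libraries with their replicate number, aOX40 (n = 3) on the left and IgG (n = 5) on the right, and black bars are means ± SD, left out for Irf8, which had 0 to 2 counts in aOX40 and 0 to 129 counts in IgG libraries. For Batf2 the aOX40 libraries sit at 16.7 to 35.7 CPM, below the lowest IgG library at 65.9 CPM.

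**Figure D2:**
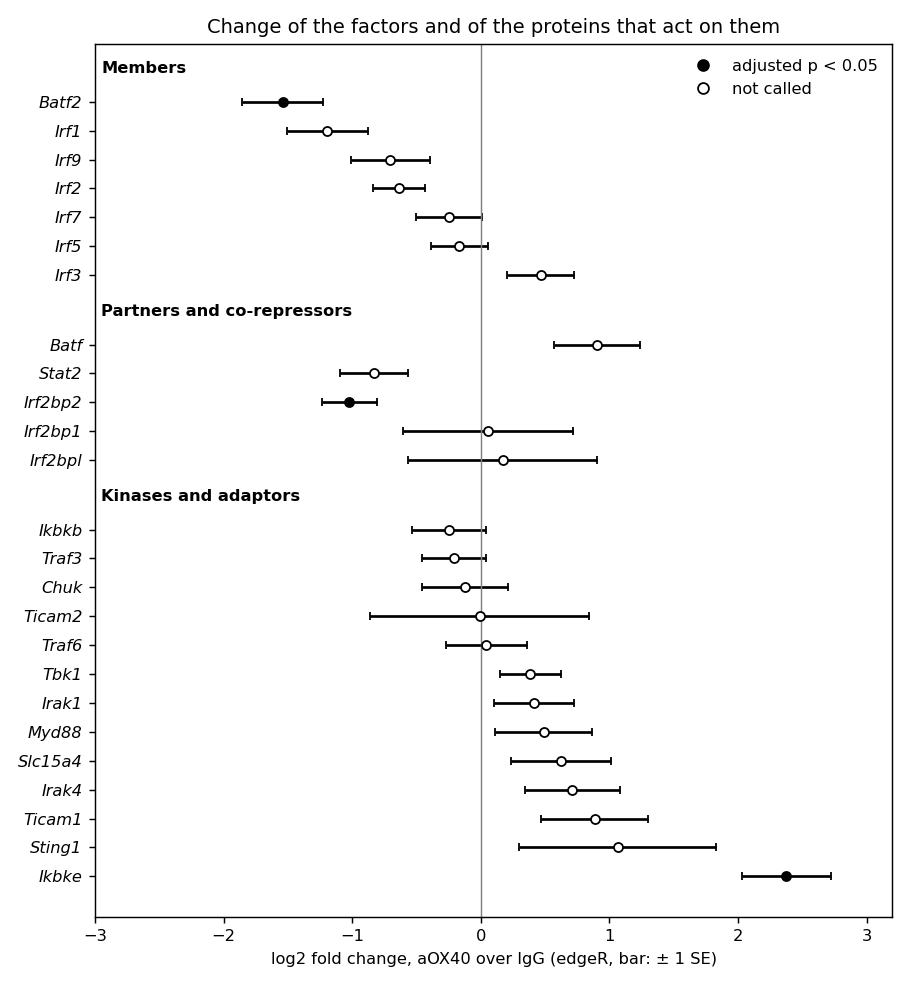
Log2 fold change (aOX40 over IgG) with its standard error, from edgeR's quasi-likelihood fit, for the 7 tested members, partners and co-repressors, and the listed kinases and adaptors. Filled symbols have an adjusted p below 0.05, which Batf2 has at -1.54 and the kinase gene Ikbke at 2.38, and Irf3 is the only member above 0, at 0.47.

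Batf2 (GRCm38 chr19:6140983-6172476, plus strand, 6 merged exons) was lower in aOX40. Its levels were 31.7, 16.7 and 35.7 CPM in aOX40 replicates 1 to 3, against 116, 65.9, 67.6, 67.3 and 89.7 CPM in IgG replicates 2 to 6. The groups did not overlap, aOX40 replicate 2 was the lowest library and IgG replicate 2 the highest. The means were 28.0 ± 10.02 CPM in aOX40 against 81.4 ± 22.0 CPM in IgG (± SD, n = 3 and 5), a log2 fold change of -1.54 (SE 0.31, edgeR adjusted p = 0.0239), or 2.91-fold lower. The call rested on all 3 aOX40 libraries: without replicate 1, 2 or 3 of aOX40 the adjusted p was 0.0512, 0.121 and 0.0664, and the log2 fold change ran between -1.75 and -1.27. Arl2, on the opposite strand, covers 2.02% of the exonic bases of Batf2 and had 5.11 CPM in aOX40 against 2.88 CPM in IgG.

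Batf, a paralog that also pairs with IRF proteins in lymphoid and myeloid cells, had the opposite sign. Batf stood at 53.1, 26.3 and 54.3 CPM in aOX40, against 14.2, 17.5, 22.4, 33.6 and 30.7 CPM in IgG. The groups overlapped through aOX40 replicate 2, and the difference missed the threshold (log2 fold change 0.90, SE 0.33, edgeR adjusted p = 0.130), although it passed when libraries were scaled by total counts alone (1.17, adjusted p = 0.0483). Within a library, where scaling cancels, the ratio of Batf2 to Batf counts was 0.597, 0.635 and 0.657 in aOX40, against 8.22, 3.76, 3.02, 2.00 and 2.92 in IgG. The aOX40 ratios lay close together and below every IgG ratio, with a log2 mean of -0.67 ± 0.07 in aOX40 against 1.82 ± 0.76 in IgG (± SD, n = 3 and 5). Batf3, the family member required for cross-presenting dendritic cells, was near 0 in both groups, at 0 to 0.482 CPM in aOX40 and 0 to 0.472 CPM in IgG.

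Irf1 (GRCm38 chr11:53770014-53778374, plus strand), the interferon-induced activator, stood at 503, 564 and 915 CPM in aOX40, against 1159, 1305, 2285, 1009 and 1801 CPM in IgG. The groups did not overlap, but aOX40 replicate 3 came close to IgG replicate 5, and IgG replicate 4 was the highest library. The means were 661 ± 222 CPM in aOX40 against 1512 ± 525 CPM in IgG (± SD, n = 3 and 5), and the difference narrowly missed the threshold (log2 fold change -1.19, SE 0.31, edgeR adjusted p = 0.0512). It passed in 4 of 18 alternative analyses, among them the DESeq2 Wald test (adjusted p = 0.00289) and edgeR without IgG replicate 5 (0.0474), and the log2 fold change stayed below 0 in all 18, from -1.49 to -0.78. Gm17334, on the opposite strand, covers 3.40% of the exonic bases of Irf1 and had 138 CPM in aOX40 and 274 CPM in IgG, so some reads may not be told apart.

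Irf2 (GRCm38 chr8:46739732-46847458, plus strand), which competes with Irf1 at interferon-responsive elements, had 98.3, 88.9 and 104 CPM in aOX40, against 157, 183, 135, 116 and 164 CPM in IgG. All aOX40 libraries lay below all IgG libraries and close together. The means were 97.1 ± 7.67 CPM in aOX40 against 151 ± 26.01 CPM in IgG (± SD, n = 3 and 5), with a log2 fold change of -0.64 (SE 0.20, edgeR adjusted p = 0.0889), and of the 18 alternatives DESeq2 alone passed the threshold (adjusted p = 0.00951). The log2 ratio of Irf1 to Irf2 counts within a library was 2.36, 2.67 and 3.14 in aOX40, against 2.89, 2.83, 4.08, 3.12 and 3.45 in IgG. These ratios overlapped between the groups, with aOX40 replicate 3 inside the IgG range.

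Among the 3 genes of proteins that bind Irf2 as co-repressors, Irf2bp2 was lower in aOX40 and 0 were higher, against 3.00% lower and 2.64% higher over all genes tested. Irf2bp2 stood at 92.1, 63.7 and 77.4 CPM in aOX40, against 174, 159, 120, 177 and 159 CPM in IgG, a log2 fold change of -1.02 (SE 0.21, edgeR adjusted p = 0.0250). The groups did not overlap, but the call was lost with scaling by total counts alone (-0.74, adjusted p = 0.0560) and without aOX40 replicate 2 or 3 (0.145 and 0.0946). Irf2bp1 and Irf2bpl differed by 0.06 and 0.17 on the log2 scale and missed the threshold.

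Irf9 (GRCm38 chr14:55603571-55610030, plus strand), the DNA-binding subunit of ISGF3, had 137, 133 and 147 CPM in aOX40, against 216, 201, 397, 153 and 166 CPM in IgG. The aOX40 libraries lay close together below all IgG libraries, and IgG replicate 4 stood far above the other 4. The means were 139 ± 7.10 CPM in aOX40 against 227 ± 98.6 CPM in IgG (± SD, n = 3 and 5), and the difference missed the threshold (log2 fold change -0.70, SE 0.30, edgeR adjusted p = 0.182). Without IgG replicate 4 the log2 fold change was -0.40 (adjusted p = 0.260).

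Stat2, which encodes the ISGF3 subunit that binds Irf9, stood at 30.4, 37.1 and 61.1 CPM in aOX40, against 69.7, 76.4, 95.7, 66.3 and 73.3 CPM in IgG, without overlap but short of the threshold (log2 fold change -0.83, SE 0.26, edgeR adjusted p = 0.0856). The log2 ratio of Irf9 to Stat2 counts averaged 1.76 ± 0.46 in aOX40 against 1.49 ± 0.36 in IgG (± SD, n = 3 and 5), and these ratios overlapped. The receptor genes upstream, Ifnar1 (log2 fold change 0.36) and Ifnar2 (-0.42), missed the threshold.

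Irf7 (GRCm38 chr7:141262706-141266481, minus strand), the interferon-inducible driver of interferon alpha genes, stood at 287, 395 and 534 CPM in aOX40, against 377, 481, 663, 376 and 509.9 CPM in IgG. The groups overlapped, and the log2 fold change was -0.25 (SE 0.26, edgeR adjusted p = 0.597), with a sign that turned under total count scaling (0.06). Irf3 (GRCm38 chr7:44997648-45002848, plus strand), the constitutive sensor-activated factor, had 40.5, 33.2 and 36.9 CPM in aOX40, against 25.3, 26.6, 39.6, 23.7 and 18.2 CPM in IgG. IgG replicate 4 lay within the aOX40 range and the other 4 IgG libraries below it, and the difference missed the threshold (0.47, SE 0.26, adjusted p = 0.299). Within a library, the log2 ratio of Irf7 to Irf3 counts was 2.82, 3.57 and 3.86 in aOX40, against 3.90, 4.18, 4.06, 3.99 and 4.81 in IgG. The ratios did not overlap, although the highest aOX40 value came close to the lowest IgG value.

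**Figure D3:**
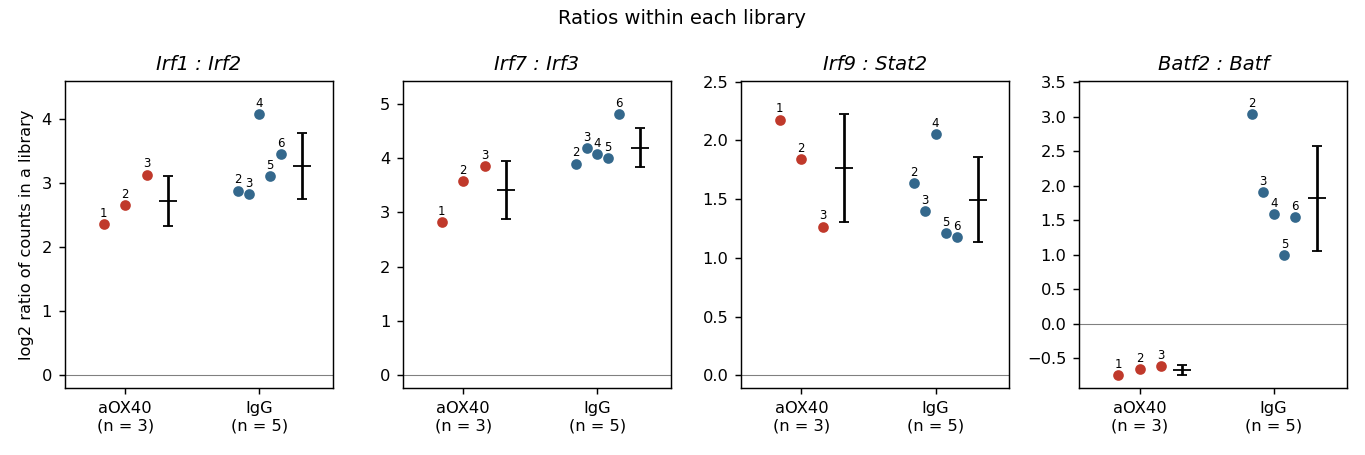
Log2 ratios of counts within each library for 4 pairs of genes: Irf1 to Irf2, Irf7 to Irf3, Irf9 to Stat2 and Batf2 to Batf. Points are libraries, aOX40 (n = 3) left and IgG (n = 5) right, with the mean ± SD as black bars. The Batf2 to Batf ratios, with means of -0.67 in aOX40 and 1.82 in IgG, stand furthest apart, and the ratios are descriptions with no test.

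Irf5 (GRCm38 chr6:29526625-29541871, plus strand), a driver of inflammatory cytokine genes, stood at 138, 138 and 137 CPM in aOX40, against 182, 201, 122, 116 and 150.2 CPM in IgG. The aOX40 values lay inside the IgG range, and the log2 fold change was -0.17 (SE 0.22, edgeR adjusted p = 0.688), or 0.13 with total counts alone. Tnpo3, on the opposite strand, covers 14.15% of the exonic bases of Irf5 and had 17.8 CPM in aOX40 and 7.84 CPM in IgG, which makes Irf5 the member with the most bases shared with another gene. For Irf3, Irf7 and Irf9 the shared part was 2.56% (Bcl2l12), 1.19% (Phrf1) and 2.28% (Rnf31).

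For the kinases and adaptors that activate Irf3, Irf5 and Irf7, 15 symbols were listed, with Tmem173 and Sting1 naming the same gene. Of these genes 13 were tested, 1 was higher in aOX40 and 0 were lower, with a median log2 fold change of 0.41. Mavs did not pass the filter on low counts. Over all genes tested, 2.64% were higher and 3.00% lower, and the median was 0.05 with quartiles of -0.57 and 0.63. Ikbke, which encodes the IRF kinase IKK-epsilon, stood at 58.6, 61.5 and 83.9 CPM in aOX40, against 11.7, 15.5, 4.09, 17.8 and 16.1 CPM in IgG. The lowest aOX40 library was above the highest IgG library by a wide margin, and the log2 fold change was 2.38 (SE 0.35, edgeR adjusted p = 0.00996). The call was lost without aOX40 replicate 2 or 3 (2.45 and 2.20, adjusted p = 0.0558 and 0.0503). The related kinase gene Tbk1 had 81.0 ± 25.8 CPM in aOX40 against 62.1 ± 8.65 CPM in IgG (± SD, n = 3 and 5), and it missed the threshold (0.39, adjusted p = 0.347), as did the adaptor gene Ticam1 (0.88) and the kinase gene Irak4 (0.71).

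In the list of genes that remove or restrain IRF signalling, 2 of 7 tested were lower in aOX40 and 0 higher, with a median log2 fold change of -0.33. The shares over all genes tested were 3.00% lower and 2.64% higher, with a median of 0.05 and quartiles of -0.57 and 0.63. Socs1, an inhibitor of JAK kinases that STATs induce, had 283, 207 and 269 CPM in aOX40, against 770.2, 905, 1649, 800.2 and 1078 CPM in IgG (edgeR log2 fold change -2.04, SE 0.29, adjusted p = 0.00934). Trim30a, an interferon-induced negative regulator of Toll-like receptor signalling, had 188, 125 and 185 CPM in aOX40, against 294, 341, 395, 299.8 and 339 CPM in IgG (-1.01, SE 0.21, adjusted p = 0.0248). Neither gene had overlapping groups, and the Trim30a call was also lost without aOX40 replicate 3 (adjusted p = 0.0766). Usp18, which blocks the type I interferon receptor, averaged 101 ± 9.94 CPM in aOX40 against 244 ± 182 CPM in IgG (± SD, n = 3 and 5), and it missed the threshold (adjusted p = 0.137, edgeR) with IgG replicate 4 at 560 CPM.

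Irf8 (GRCm38 chr8:120736358-120756694, plus strand) was at or near 0 in most libraries. Its counts were 2, 0 and 1 in aOX40, against 0, 0, 43, 129 and 0 in IgG, so that it was detected above a floor of 3 counts in IgG replicates 4 and 5 and in none of the aOX40 libraries. A floor of 3 counts corresponded to 0.0337 to 0.0404 CPM in the aOX40 libraries, and IgG replicates 4 and 5 stood at 0.800 and 2.10 CPM. It did not pass the filter on low counts and was not tested, and with 3 of 5 IgG libraries also at 0 no fold is given. Among the IgG libraries, summed monocyte and macrophage markers were highest in replicate 5, at 730 CPM. Replicate 4, at 385 CPM, was near the lowest. Most of both sums was Ly6c2, at 656 and 314 CPM, so they say little about the other markers. Csf1r was highest among the IgG libraries in replicates 4 and 5, at 25.1 and 24.2 CPM, as were Fcgr1 and C1qa. Adgre1, Apoe, C1qb, C1qc and Ccr2 did not have both replicates highest. Csf1r was higher still in every aOX40 library, where Irf8 had at most 2 counts. Of the dendritic cell markers, 7 of 12 were in the table and the other 5 were not analysed here. Their sum was 0.661 to 1.84 CPM in aOX40 and 0.577 to 6.69 CPM in IgG, and the defining genes Flt3 and Zbtb46 were at most 0.161 and 0.550 CPM. Xcr1, Clec9a and Itgae reached 3.58, 2.09 and 1.42 CPM, each in an IgG library. The IgG sum was highest in replicate 6, which had 0 Irf8 counts, and lowest in replicate 4. It was 3.15 CPM in replicate 5. The part of these cells in the Irf8 counts was not tested. Spi1, which encodes the DNA-binding partner PU.1 through which Irf8 acts in myeloid cells, was at 783 ± 78.9 CPM in aOX40 against 659 ± 117 CPM in IgG (± SD, n = 3 and 5). Of the 13 listed partners and targets of Irf8, 9 were tested and 0 passed the threshold in edgeR (1 higher and 0 lower at an unadjusted p below 0.05, where all genes gave 12.5% higher and 12.2% lower, and 0 in DESeq2). Both unadjusted counts are below those shares of the 9 genes. The 1 higher was Cybb, with 127 ± 28.1 CPM in aOX40 against 72.8 ± 25.5 CPM in IgG (± SD, n = 3 and 5, log2 fold change 0.81, edgeR adjusted p = 0.126). Its lowest aOX40 library, at 103.2 CPM, was narrowly above its highest IgG library, at 102.8 CPM, a separation that 8.22% of all genes tested had.

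Plasmacytoid dendritic cells, which hold Irf7 and Irf8 at high levels, were looked for by 8 markers, of which 6 were in the table and 2, Siglech among them, were not analysed here. Their sum was 27.5 to 35.8 CPM in aOX40 and 42.0 to 49.3 CPM in IgG (exact two-sided permutation p = 0.0357, and 0.0714 with total counts alone). Most of the sum came from Bst2 and Runx2, which other cells also express. The part of these markers in the Irf7 and Irf8 values was not tested.

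Per kilobase of exon, so that genes can be ranked, the order of the levels was nearly shared by the groups except for Batf2. In aOX40 the levels were 166 CPM per kb for Irf1, 107 for Irf7, 47.3 for Irf5, 25.8 for Irf9, 13.1 for Irf2, 11.1 for Batf2, 10.7 for Irf3 and 0.00186 for Irf8. In IgG they were 380.2 CPM per kb for Irf1, 128 for Irf7, 53.1 for Irf5, 42.1 for Irf9, 32.3 for Batf2, 20.4 for Irf2, 7.75 for Irf3 and 0.0823 for Irf8. The ranges of neighbours overlapped between Irf1 and Irf7, Irf2 and Batf2, and Batf2 and Irf3 in aOX40, and between Irf5 and Irf9, and Irf9 and Batf2 in IgG. Batf2 thus stood above Irf2 in 5 of 5 IgG libraries and above it in 1 of 3 aOX40 libraries. Irf4 was not analysed here.

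The genes that ISGF3 is known to activate were described from a list of 22, of which 20 were tested. In aOX40, 5 of the 20 were lower and 0 were higher (Oas2, Xaf1, Isg15, Rsad2 and Oasl1), against 3.00% lower and 2.64% higher over all genes tested. Another 13 against 0 is the count of lower and higher genes at an unadjusted p below 0.05, the 5 included, a level at which 12.2% of all genes were lower and 12.5% higher. All 20 had a log2 fold change below 0, against 47.8% of all genes tested, with a median of -1.06. Xaf1, a pro-apoptotic interferon-stimulated gene, had 96.4, 70.5 and 72.1 CPM in aOX40, against 288, 188, 228, 181 and 214 CPM in IgG (edgeR log2 fold change -1.46, SE 0.23, adjusted p = 0.0110). Isg15, a ubiquitin-like modifier, had 497, 270.5 and 538 CPM in aOX40, against 871, 806, 1607, 905 and 1184 CPM in IgG (-1.30, SE 0.30, adjusted p = 0.0361), and neither gene had overlapping groups. Rsad2, the antiviral enzyme viperin, had 606, 394 and 511 CPM in aOX40, against 1535, 1690.5, 4505, 968 and 1362 CPM in IgG (-1.999, SE 0.47, adjusted p = 0.0369), without overlap and with IgG replicate 4 far above the rest. Oas2 and Oasl1, of the oligoadenylate synthetase family, fell by 2.10 and 1.87 on the log2 scale. Mx2, of the dynamin-like antiviral genes, is typed as a polymorphic pseudogene in the GENCODE annotation used here. Mx2 had 0 counts in each aOX40 library, against 0, 0.965, 7.20, 0 and 0.514 CPM in IgG, and missed the threshold (edgeR adjusted p = 0.186). Its IgG level rests mostly on replicate 4, so no fold is given. Leaving out 1 library at a time gave 0 to 6 lower members (2 without aOX40 replicate 1 and 1 without replicate 3), edgeR's legacy setting gave 2 and DESeq2, which called 7.02% of all genes lower and 3.77% higher, gave 11.

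The genes that Irf1 is known to activate gave the same direction. Of 20 listed and 18 tested, 4 were lower in aOX40 (Il15, Socs1, Nlrc5 and Cd274) and 0 higher (3.00% lower and 2.64% higher over all genes), 9 were lower and 0 higher at an unadjusted p below 0.05 (12.2% lower and 12.5% higher over all genes), and the median log2 fold change was -0.67. Il15, a cytokine that sustains natural killer and memory T cells, had 169, 95.9 and 122 CPM in aOX40, against 532, 350.2, 553, 440.0 and 454 CPM in IgG (-1.85, SE 0.25, edgeR adjusted p = 0.00815). Nlrc5, the transactivator of MHC class I genes, had 48.6, 32.9 and 43.0 CPM in aOX40, against 173, 167, 137, 90.9 and 151 CPM in IgG (-1.79, SE 0.26, adjusted p = 0.00996). Neither gene had overlapping groups. Cd274, which encodes PD-L1, fell by 1.32. Tap1, a peptide transporter gene on the same list, overlapped between groups with 295 ± 128 CPM in aOX40 against 328 ± 74.5 CPM in IgG (± SD, n = 3 and 5), a log2 fold change of -0.15 with an edgeR adjusted p of 0.797, and 5 of the 18 had a log2 fold change above 0. Leaving out 1 library at a time gave 0 to 5 lower members (2 without aOX40 replicate 3), and DESeq2 gave 7. Earlier results of these libraries were known when both target lists were drawn up, so their direction is not independent evidence.

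**Figure D4:**
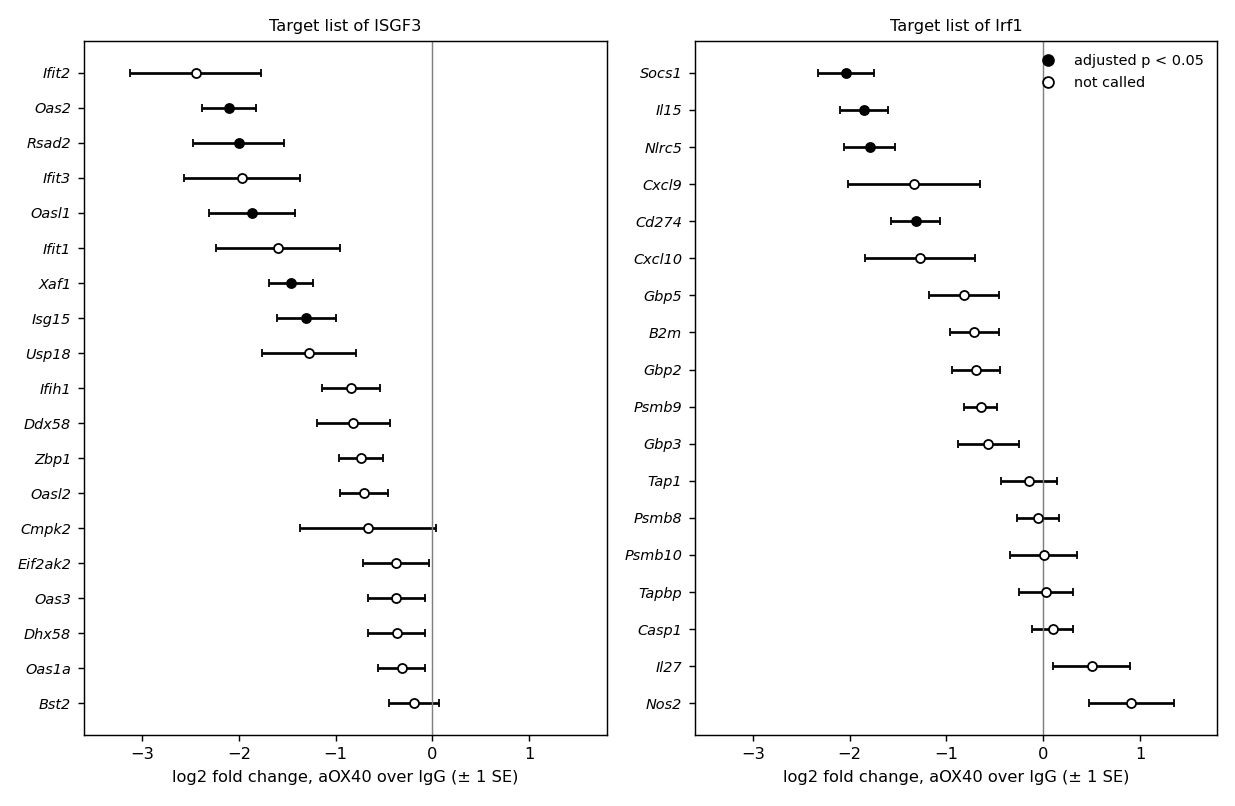
Log2 fold changes (aOX40 over IgG) with standard errors for tested members of the ISGF3 and Irf1 target lists, from edgeR. Filled symbols have an adjusted p below 0.05, and Mx2, with 0 counts in aOX40, is left off. Each ISGF3 target drawn lies below 0, while 5 of the 18 Irf1 targets lie above 0.

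Likeness of pattern was measured for each tested member as the root mean square difference of centred log2 CPM over the 8 libraries, against all tested genes with a mean of at least 10 CPM. The gene closest to Irf1 was Tnfrsf1a, which encodes a receptor for tumor necrosis factor, at a distance of 0.07 on the log2 scale. Tnfrsf1a stood at 297, 283 and 476 CPM in aOX40, against 608, 738, 1245, 525 and 1005 CPM in IgG. Next to it came Tnfaip6 (distance 0.17) and B4galt3 (0.19). The genes closest to Batf2 were Foxo3, a forkhead transcription factor gene, Fnip2 and Mirt1, at distances of 0.21, 0.22 and 0.22. Their log2 fold changes were -1.50, -1.52 and -1.77, against -1.54 for Batf2. Because the genes were picked for a profile over these same libraries, a like difference between aOX40 and IgG follows from the choice and is given with no test. Irf2 was closest to the immunoproteasome gene Psmb9 (0.12), Irf3 to Lmo4 (0.12), Irf5 to Kcmf1 (0.12), Irf7 to Rap2a and Fos (0.12 each) and Irf9 to Arid4a (0.17).

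**Figure D5:**
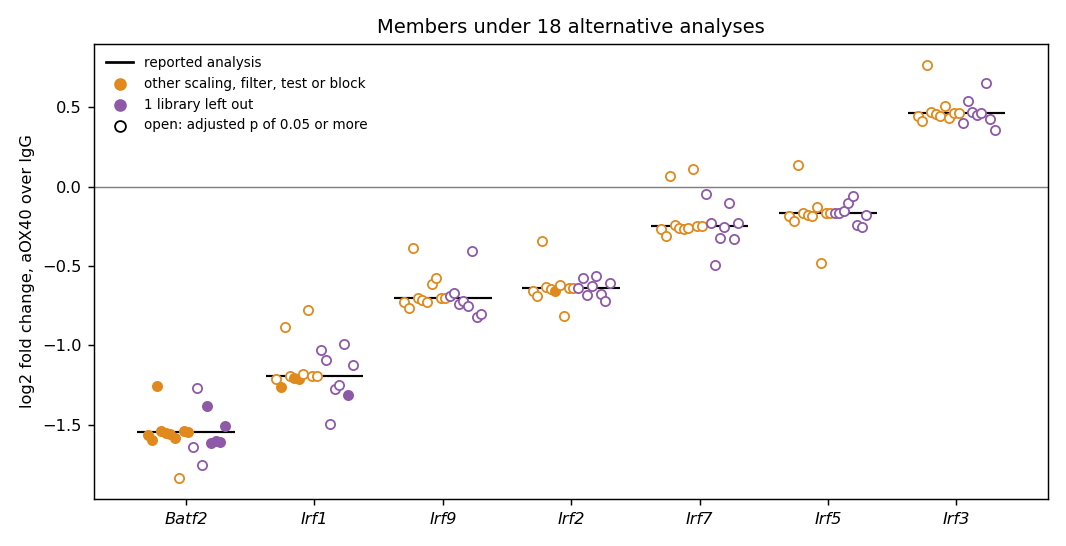
Log2 fold change (aOX40 over IgG) of each tested member in 18 alternative analyses. Orange symbols use another scaling, filter, test or a replicate block, purple symbols leave out 1 library, filled symbols have an adjusted p below 0.05, and the black line is the reported value. Batf2 is filled in 14 of 18 and Irf1 in 4 of 18, and the points of Irf5 and Irf7 fall on both sides of 0.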

How the data were processed

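Gene expression was measured in 8 libraries, and the authors deposited estimated counts per gene symbol. Per the submitters' processing notes, STAR 2.6.0, Subread, featureCounts 1.5.1 and the mm10 build were used; the settings, the strand and the annotation were not given in the sources used. Since 63.4% of values were whole within 0.01 and the rest were not, all were rounded. Per the labels' protocols, RNA was extracted with a column kit and libraries were made from total RNA.

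The rounded counts were filtered with filterByExpr, scaled with TMM factors and compared with edgeR 4.0.16 (quasi-likelihood F test, legacy setting off, group as the only term; limma 3.58.1, R 4.3.3), with Benjamini-Hochberg adjustment over 13278 genes and a threshold of 0.05. Standard errors came from the F statistic. The fit was tested on simulated data. Single values were compared by an exact permutation test over 56 assignments. Likeness was measured on log2 CPM (prior count 2). Exons, lengths and positions came from GENCODE M21 on GRCm38, the assembly of mm10.

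Named were all members, up to 4 genes of each pathway list with the smallest adjusted p, the 3 most alike genes of a member, and others whose values were already seen (Oasl1, Mx2, Spi1, Tap1). Not every gene of the lists is reported here. The members and lists were chosen with earlier results of these data known. Alternatives were other scalings, filters, DESeq2 1.42.0, limma voom, 2 further settings of edgeR chosen after seeing the data, a replicate block and each library left out. Shared replicate numbers (2 and 3) were not taken as pairs.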

Additional observations from a re-analysis of the deposited data

Results flagged for a closer look

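In the IgG group of 5 libraries, 51 levels and ratios were scanned for a single library whose gap to its nearest neighbour was too large a part of the group's range, and 6 were found; chance gives about 1 in 20. The aOX40 group of 3 was too small for this scan. IgG replicate 4 held 3 of the 6. Irf9 was at 397 CPM there, against 153 to 216 CPM in the other IgG libraries. Usp18 was at 560 CPM, against 89.0 to 200 CPM. Rsad2 was at 4505 CPM, against 968 to 1690.5 CPM. In IgG replicate 2 the ratio of Batf2 to Batf counts was 8.22, against 2.00 to 3.76 in the other IgG libraries, and Batf3 was at 0.472 CPM, against 0 in the others. In IgG replicate 6 the ratio of Irf7 to Irf3 counts was 28.0, against 14.9 to 18.1 in the other IgG libraries.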

How the results depend on the processing

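The number of genes past the threshold, 750 as reported, was 452 with no filter on low counts, 1433 with DESeq2, 320 with the legacy setting of edgeR, 0 with the replicate block (2594 at an unadjusted p below 0.05) and 0 to 589 with 1 library left out (0 without aOX40 replicate 2, where 2230 passed an unadjusted 0.05; 59 without aOX40 replicate 3). Total counts alone gave 874 higher and 246 lower (78.0% higher), against 351 higher and 399 lower (46.8%) as reported. Members past the threshold, 1 as reported, were 2 with upper quartile factors, 2 with a filter at 1 CPM, 3 with DESeq2, 0 with the replicate block and 0 to 2 with 1 library left out. Batf2 kept its sign in all 18 alternatives and its call in 14; with the replicate block it was -1.84 (adjusted p = 0.244). Deviations from the group means correlated at 0.0224 for replicate 2 and 0.0469 for replicate 3. Pairs with unlike numbers ran from -0.0442 to 0.0307. The value for replicate 3 was thus the highest, but values this small cannot decide whether shared numbers mark pairs. The block is therefore given as an alternative, and pairing is not excluded. The sign turned for Irf5 with total counts (0.13) and for Irf7 with total counts (0.064) and the block (0.11). The aOX40 minus IgG difference in summed markers ran from -1035 to 3548 CPM for neutrophils and -0.466 to 7.55 CPM for T and natural killer cells with 1 library left out. The cause was not tested in any of these. The common dispersion of edgeR over all genes tested corresponds to a coefficient of variation of 84.7%, which may include technical scatter. For the tested members, the SD as a share of mean CPM was 0.528% (Irf5) to 35.8% (Batf2) in aOX40 and 17.2% (Irf2) to 43.5% (Irf9) in IgG. This is a different measure from the common dispersion, and genes of like level were not compared. The spread between libraries limits what 3 against 5 libraries can show.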
